A study of Mus musculus with 7 samples.

Results

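miR-192, miR-194 and miR-215 were described in the small RNA of extracellular vesicles, which are small membrane sacs shed by cells. The vesicles had been prepared from the adipose tissue of C57BL/6J males. Mice in the HFD group (3 libraries) had been kept on a high-fat diet and mice in the Chow group (4 libraries) on a chow diet, in each case for 12 weeks. The labels give no age, fat depot, genetic change or other treatment for either group, and they do not say whether a library came from 1 animal or from pooled animals. The rule listed 6 mature miRNAs of the miR-192, miR-194 and miR-215 precursors, and 5 of them are rows of the combined table of 1084 entries: mmu-miR-192-5p, mmu-miR-194-5p, mmu-miR-194-1-3p, mmu-miR-215-5p and mmu-miR-215-3p. mmu-miR-192-3p was not analysed here. The miRNAs were chosen by their levels in these same 7 libraries, as a pattern that crosses the diets, so their levels and diet differences are given as a description with no test.

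A miRNA is cut from a hairpin precursor that can yield a mature strand from its 5p arm and another from its 3p arm. The mature strand guides a silencing complex to messenger RNAs that pair with its seed, bases 2 to 8. miR-192, miR-194 and miR-215 are abundant in intestinal epithelium, kidney and liver, where their transcription has been tied to the hepatocyte nuclear factors, and in human cells they are induced by the tumour suppressor p53. They are not regarded as typical miRNAs of fat cells.

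The libraries held 1969840, 1825488 and 5941955 miRNA counts in HFD 1, HFD 2 and HFD 3, and 2120171, 180694, 48840 and 2294878 in Chow 1, Chow 2, Chow 3 and Chow 4. Chow 2 and Chow 3 stood apart by their low depth and by 485 entries that are blank for both in the separate Chow table and read as 0 in the combined table, miR-194-1-3p and miR-215-3p among them. With 0 counts, a level of as much as 3 counts remains possible. In normalised CPM (counts scaled to a common library size after TMM, a correction for composition) that floor is 66.1 in Chow 3, 14.1 in Chow 2 and between 0.464 and 1.99 in the other 5 libraries. The list of 10 fat-associated miRNAs held summed levels of 283938, 232125 and 218632 normalised CPM in the HFD libraries and between 420919 and 862486 in the Chow libraries. Most of each sum was miR-148a-3p, with 243230, 202372 and 193171 in the HFD libraries and between 371615 and 804669 in the Chow libraries. Floors and intervals cover counting error only, because reads copied by PCR are not independent molecules when no molecular identifiers are used. In a vesicle preparation, fewer vesicles from a cell type and less miRNA per vesicle cannot be told apart.

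The mature sequences are shown because 2 of the miRNAs share a seed, and because they are close enough in sequence to bear on how reads were assigned. They are RefSeq sequences of the GRCm38.p6 build, given 5′ to 3′ with the seed in capitals, and all lie on the plus strand.
miR-192-5p, chr19:6264857-6264877: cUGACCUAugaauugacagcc
miR-215-5p, chr1:185313610-185313630: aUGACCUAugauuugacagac
miR-194-5p, chr1:185313325-185313346 and chr19:6264658-6264679: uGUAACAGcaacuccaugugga
miR-194-1-3p, chr1:185313360-185313381: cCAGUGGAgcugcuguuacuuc
miR-194-2-3p, chr19:6264694-6264715: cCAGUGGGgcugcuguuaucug
miR-215-3p, chr1:185313647-185313667: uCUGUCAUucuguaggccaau

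miR-192-5p and miR-215-5p carry the same seed, and among 1679 mature mouse miRNAs in RefSeq no other miRNA has it. They have the same base at 18 of 21 positions. The differences, counted from the 5′ end with the miR-192-5p base first and the miR-215-5p base last, are C1A, A12U and C20A. The seeds of miR-194-5p, miR-194-1-3p and miR-215-3p are each carried by 0 other mature mouse miRNAs in RefSeq. The 3p arms of the precursors Mir194-1 and Mir194-2 have the same base at 18 of 22 positions. With the miR-194-2-3p base first, they differ by G8A, U19C, C20U and G22C, of which G8A falls in the seed. How many mismatches read assignment allowed is not stated in the sources used here, so the split of counts between these near-identical pairs is uncertain.

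The precursors lie as 2 pairs. Mir194-1 and Mir215 lie on the plus strand of chromosome 1 (GRCm38), with Mir194-1 at 185313319 to 185313385 and Mir215 at 185313581 to 185313692, a distance of 196 bases. Both are inside the span of Iars2, a mitochondrial isoleucyl-tRNA synthetase gene on the minus strand, and overlap 0 of its exons. Both also lie within the antisense transcript 2010103J01Rik on the plus strand, where Mir194-1 is intronic and Mir215 is wholly exonic. Mir194-2 and Mir192 lie 116 bases apart on the plus strand of chromosome 19, at 6264643 to 6264728 and 6264844 to 6264932, and overlap no other annotated gene. The nearest gene upstream, Atg2a, ends 2308 bases before Mir194-2. The hairpins, with the counted arms in capitals, show that the miR-194 precursors have an identical 5p arm while their 3p arms differ.
Mir194-1: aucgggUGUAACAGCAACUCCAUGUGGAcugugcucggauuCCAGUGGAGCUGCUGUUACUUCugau
Mir194-2: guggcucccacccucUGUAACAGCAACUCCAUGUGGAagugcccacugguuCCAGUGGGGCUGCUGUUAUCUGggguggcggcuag
Mir215: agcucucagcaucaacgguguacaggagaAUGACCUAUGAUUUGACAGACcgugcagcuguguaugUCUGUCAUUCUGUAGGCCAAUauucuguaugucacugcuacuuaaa
Mir192: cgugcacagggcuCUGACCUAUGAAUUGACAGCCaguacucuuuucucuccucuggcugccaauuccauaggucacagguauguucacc

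**Figure D1:**
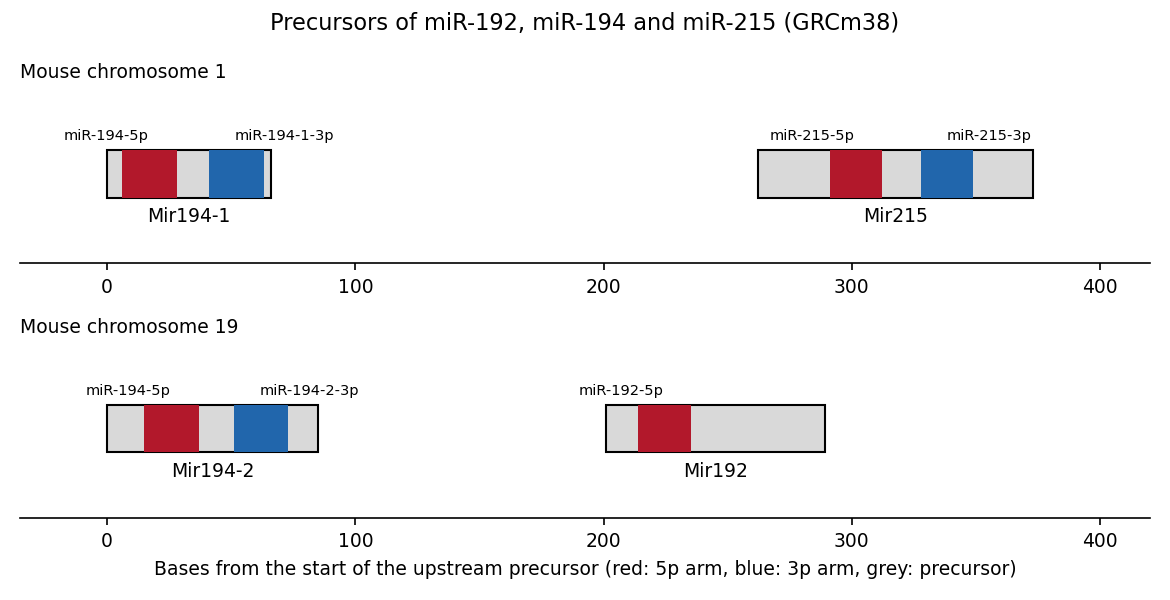
The 4 precursors drawn to scale by distance in bases from the start of the upstream precursor of each pair, with 5p arms in red, 3p arms in blue and the rest of the precursor in grey. Mir194-1 and Mir215 are 196 bases apart, and Mir194-2 and Mir192 are 116 bases apart.

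miR-215-5p, the mature strand of Mir215, was the most variable of the 5 miRNAs in absolute level. It had 28464, 22253 and 6191 counts in HFD 1, HFD 2 and HFD 3, against 1358, 2, 0 and 37401 in Chow 1 to Chow 4. As normalised CPM these were 13294, 10362 and 957 in the HFD libraries and 901, 9.40, 0 and 17837 in the Chow libraries. Chow 4, HFD 1 and HFD 2 were high, HFD 3 and Chow 1 lay close together more than 10-fold lower, and Chow 2 and Chow 3 were under their floors of 14.1 and 66.1. The group means were 8205 ± 6445 normalised CPM in HFD (SD, n = 3) and 4687 ± 8777 in Chow (SD, n = 4), with a fitted log2 fold change of 0.80 (SE 1.60) in HFD over Chow. With 1 library left out, that value ran from 0.37 without HFD 1 to 4.62 without Chow 4, and it was -0.22 without Chow 2 and Chow 3 and 3.30 with limma-voom.

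miR-192-5p, the strand of Mir192 with the same seed, had its highest levels in the same 3 libraries over a narrower range. In normalised CPM they came in the same order. The counts of miR-192-5p were 5752, 3639 and 3581 in HFD 1 to HFD 3, against 1108, 158, 14 and 6265 in Chow 1 to Chow 4. Its levels were 2686, 1695 and 554 normalised CPM in the HFD libraries and 735, 743, 308 and 2988 in the Chow libraries. Chow 1 lay above HFD 3 in normalised CPM, unlike for miR-215-5p. In CPM without TMM, Chow 1 lay below HFD 3 (523 against 603) and HFD 1 above Chow 4 (2920 against 2730). The diets overlapped, since the highest and the lowest of the 7 levels were both in Chow. The means were 1645 ± 1067 normalised CPM in HFD (SD, n = 3) and 1194 ± 1213 in Chow (SD, n = 4), with a log2 fold change of 0.44 (SE 0.71). That value was 0.013 without HFD 1, 1.42 without Chow 4 and -0.20 without Chow 2 and Chow 3.

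The sequence of miR-194-5p is the same in both clusters, and its counts cannot be divided between Mir194-1 and Mir194-2. It had 4951, 4313 and 1804 counts in HFD 1 to HFD 3, against 498, 51, 7 and 6688 in Chow 1 to Chow 4. These were 2312, 2008 and 279 normalised CPM in the HFD libraries and 331, 239.7, 154 and 3190 in the Chow libraries. Chow 4, HFD 1 and HFD 2 were again far above the other 4 libraries. The means were 1533 ± 1097 normalised CPM in HFD (SD, n = 3) and 979 ± 1476 in Chow (SD, n = 4), with a log2 fold change of 0.62 (SE 0.96). That value was 0.28 without Chow 3, 2.60 without Chow 4 and -0.22 without Chow 2 and Chow 3. The Pearson correlation of miR-192-5p with miR-194-5p, computed from log2 CPM at a prior count of 2, was 0.97 over 7 libraries, which also share their depth and scaling.

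The 3p arms, usually the discarded strand, were scarce and followed the 5p arms. miR-215-3p had 269, 165 and 45 counts in HFD 1 to HFD 3, against 21, 0, 0 and 509 in Chow 1 to Chow 4, or 126, 76.8 and 6.96 normalised CPM in HFD against 13.9, 0, 0 and 243 in Chow. miR-194-1-3p had 87, 62 and 19 counts in HFD 1 to HFD 3, against 10, 0, 0 and 145 in Chow 1 to Chow 4, or 40.6, 28.9 and 2.94 normalised CPM in HFD against 6.64, 0, 0 and 69.2 in Chow. Both were highest in Chow 4, then HFD 1 and then HFD 2, the same 3 libraries in the same order as all 5 miRNAs in normalised CPM. Both 0 values in Chow 2 and Chow 3 are entries that are blank in the separate table, so at those depths they set no lower level than the floor. The fitted log2 fold changes were -0.13 (SE 1.20) for miR-215-3p and -0.15 (SE 1.03) for miR-194-1-3p, although the HFD mean exceeded the Chow mean for both. Mean miR-215-3p was 69.8 ± 59.6 normalised CPM in HFD (SD, n = 3) and 64.2 ± 119 in Chow (SD, n = 4), and mean miR-194-1-3p was 24.1 ± 19.3 in HFD and 18.9 ± 33.6 in Chow. The fitted sign turned positive for both under RLE and library-size scaling. With 1 library left out, the value for miR-215-3p ran from -0.77 without HFD 1 to 2.95 without Chow 4. That for miR-194-1-3p ran from -0.64 without HFD 1 to 0.41 without HFD 3, and without Chow 4 it was below the filter for testing.

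**Figure D2:**
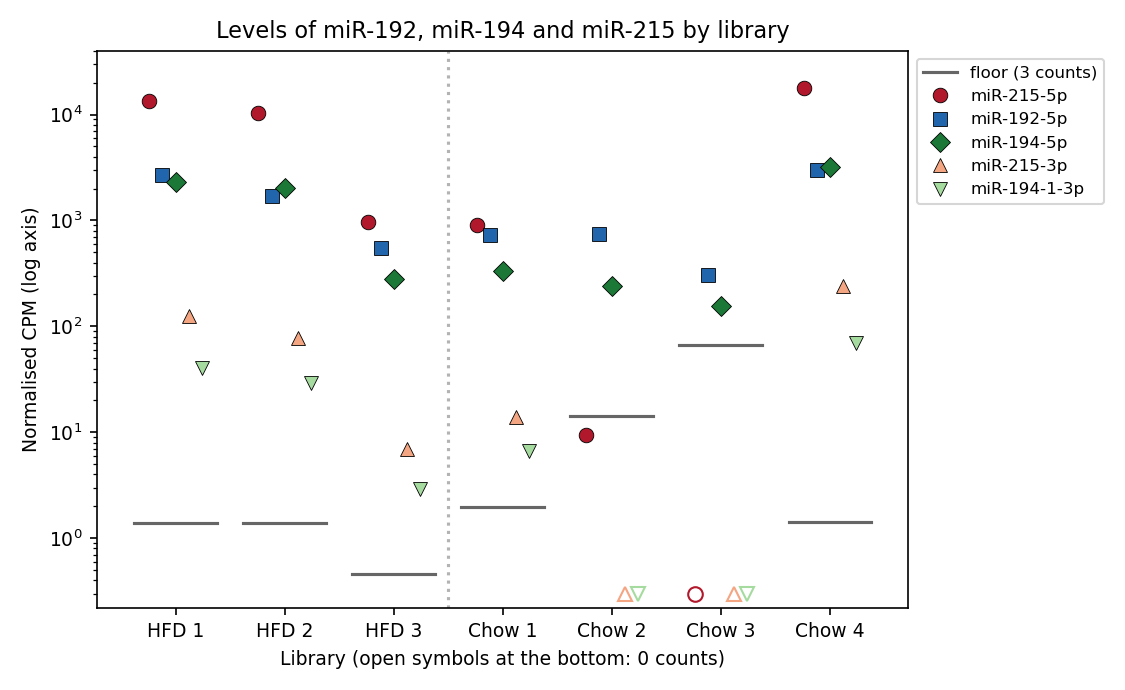
Levels of the 5 miRNAs in each library, in normalised CPM on a log axis, with grey bars for the level of 3 counts and open symbols at the bottom for 0 counts. Chow 4, HFD 1 and HFD 2 hold the 3 highest levels of every miRNA, and the diets overlap for all 5.

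Together the 5 miRNAs held 2.01%, 1.67% and 0.196% of the counts of HFD 1, HFD 2 and HFD 3, with exact 95% binomial intervals (Clopper-Pearson) of 1.99% to 2.03%, 1.65% to 1.69% and 0.192% to 0.199%. They held 0.141%, 0.117%, 0.0430% and 2.22% of those of Chow 1 to Chow 4, where the interval was 0.136% to 0.146% in Chow 1, 0.102% to 0.134% in Chow 2, 0.0266% to 0.0657% in Chow 3 and 2.20% to 2.24% in Chow 4. Summed levels were 18459, 14171 and 1800.0 normalised CPM in HFD against 1988, 992, 463 and 24326.5 in Chow. HFD 3, the deepest library, lay below Chow 1 in summed normalised CPM. The log2 ratio of the HFD mean to the Chow mean was 0.73, against a spread of 2.24 (the SD of the summed log2 levels within the diets, pooled). That ratio was 3.31 without Chow 4 and -0.22 without Chow 2 and Chow 3, so its size rests on Chow 4 and its sign on the shallow pair.

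In the fit over the whole table, 385 miRNAs were tested and 11 (2.86%) passed an edgeR quasi-likelihood adjusted p of 0.05. None of the 5 miRNAs (0 of 5) passed, in a contrast that the rule had used, so nothing is read from that count. Levels did not overlap between the diets for 86 of the 385 (22.3%) and for 0 of the 5, which is the pattern the miRNAs were selected on. The median log2 fold change over all tested miRNAs was -0.02, and 190 of the 385 values were positive. At an unadjusted edgeR p under 0.05 there were 93 miRNAs (24.2%). DESeq2 called 50 of the 385 (13%) and limma-voom called 16 (4.16%). These shares are the background for the list counts given further on.

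The balance between the seed-sharing strands also crossed the diets. miR-215-5p made up 83.2%, 85.9% and 63.4% of the miR-215-5p and miR-192-5p counts in HFD 1 to HFD 3. In Chow 1 to Chow 4 it made up 55.1%, 1.25%, 0% and 85.7%. The share was highest in the 3 libraries with the highest levels, where the exact 95% intervals ran from 82.8% to 83.6% in HFD 1, 85.5% to 86.4% in HFD 2 and 85.3% to 86.0% in Chow 4, and the exact 95% intervals of HFD 3 (62.4% to 64.3%) and Chow 1 (53.1% to 57.0%) lay below those shares. Chow 2 had 2 miR-215-5p counts among 160, with an interval of 0.152% to 4.44%, while its miR-192-5p level of 743 normalised CPM was close to the 735 of Chow 1. The upper end of that interval lay below the share in Chow 1. Chow 3 had 0 of 14, which allows a share of up to 21.4% at 3 counts.

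The share of miR-194-5p against miR-192-5p ran over a narrower range. It made up 46.3%, 54.2% and 33.5% of the miR-194-5p and miR-192-5p counts in HFD 1 to HFD 3, and 31.0%, 24.4%, 33.3% and 51.6% in Chow 1 to Chow 4. The exact 95% interval in Chow 3 ran from 14.6% to 57.0%, on 21 counts, and so covered the whole range, while that of Chow 2 ran from 18.7% to 30.8%. The same 3 libraries had the highest shares. The 3p strands of the chromosome 1 cluster kept a narrow ratio to each other: miR-215-3p was 75.6%, 72.7% and 70.3% of the miR-215-3p and miR-194-1-3p counts in HFD 1 to HFD 3, against 67.7% in Chow 1 and 77.8% in Chow 4. The interval of Chow 1 ran from 48.6% to 83.3%, which covered the other 4 shares, and Chow 2 and Chow 3 had 0 counts of both strands.

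**Figure D3:**
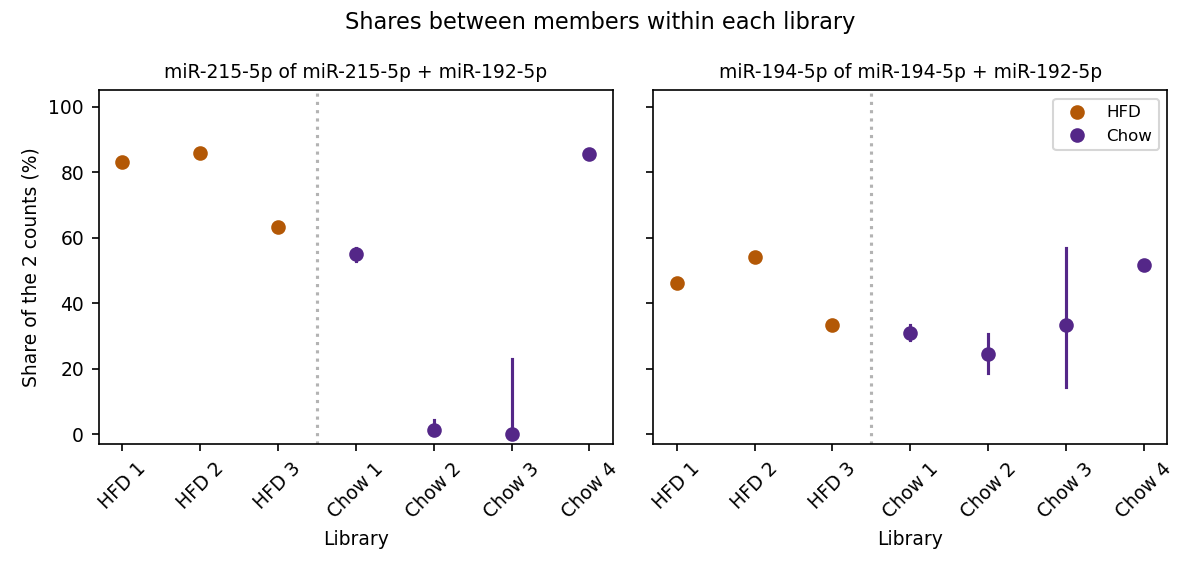
Share of miR-215-5p in the miR-215-5p and miR-192-5p counts (left) and of miR-194-5p in the miR-194-5p and miR-192-5p counts (right), in percent for each library, with exact 95% binomial intervals as bars. The left share runs from 0% in Chow 3 to 85.9% in HFD 2, and the right share from 24.4% in Chow 2 to 54.2% in HFD 2.

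The 5p strands held nearly all counts in HFD 1 to HFD 3, Chow 1 and Chow 4, while levels varied more than 10-fold. The 5p arm held 99.1%, 99.3% and 99.3% of Mir215 counts in HFD 1 to HFD 3, and 98.5% and 98.7% in Chow 1 and Chow 4, with an exact 95% interval of 97.7% to 99.1% in Chow 1. The intervals of HFD 1 (98.9% to 99.2%), HFD 2 (99.1% to 99.4%) and HFD 3 (99.0% to 99.5%) lay above that of Chow 4 (98.5% to 98.8%). The ratio of 5p to 3p counts was 106, 135 and 138 in HFD 1 to HFD 3. It was 64.7 in Chow 1 and 73.5 in Chow 4. miR-194-5p held 98.3%, 98.6% and 99.0% of the miR-194-5p and miR-194-1-3p counts in HFD 1 to HFD 3, and 98.0% and 97.9% in Chow 1 and Chow 4, with an interval of 96.4% to 99.1% in Chow 1. For that share the interval of Chow 4 (97.5% to 98.2%) overlapped those of HFD 1 (97.9% to 98.6%) and HFD 2 (98.2% to 98.9%). That of HFD 3 (98.4% to 99.4%) lay above it. Both 5p shares were higher in each HFD library than in Chow 1 and Chow 4, a difference that was not tested. miR-194-2-3p, the 3p arm of the chromosome 19 copy, had 0, 1 and 3 counts in HFD 1 to HFD 3, against 0, 0, 0 and 6 in Chow 1 to Chow 4, and was below the filter for testing. miR-194-1-3p therefore made up 100%, 98.4% and 86.4% of the miR-194 3p counts in HFD 1 to HFD 3, and 100% and 96.0% in Chow 1 and Chow 4. These shares rest on few counts, with intervals of 65.1% to 97.1% in HFD 3 (22 counts) and from 69.2% in Chow 1 (10 counts). As assigned, most miR-194 3p counts fell to the chromosome 1 copy in every library that had any. That split is uncertain, because the mismatches allowed in read assignment are not stated. The 3p counts do not show from which copy the shared 5p strand came.

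A wide spread within a diet is part of what the miRNAs were chosen by, a pattern that crosses the diets, so the ranks given here describe that choice and support nothing. HFD 1 was 13.9-fold above HFD 3 for miR-215-5p, 18.1-fold for miR-215-3p, 13.8-fold for miR-194-1-3p, 8.29-fold for miR-194-5p and 4.85-fold for miR-192-5p. Chow 4 was 19.8-fold above Chow 1, the other deep Chow library, for miR-215-5p, 17.4-fold for miR-215-3p, 10.4-fold for miR-194-1-3p, 9.65-fold for miR-194-5p and 4.06-fold for miR-192-5p. With a prior count of 2, which lowers the differences of scarce strands, the difference between Chow 1 and Chow 4 in log2 normalised CPM was 4.31 for miR-215-5p, 4.03 for miR-215-3p, 3.27 for miR-194-5p and 3.21 for miR-194-1-3p, which took ranks 1 to 4 among 385. It was 2.02 for miR-192-5p, at rank 33, against a median of 0.69 and a 95th percentile of 2.24 over all tested miRNAs. Over the 3 HFD libraries the log2 range was 4.00 for miR-215-3p and 3.79 for miR-215-5p, at ranks 4 and 6, and 2.28 for miR-192-5p, at rank 25. The median of that range over all tested miRNAs was 0.68.

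**Figure D4:**
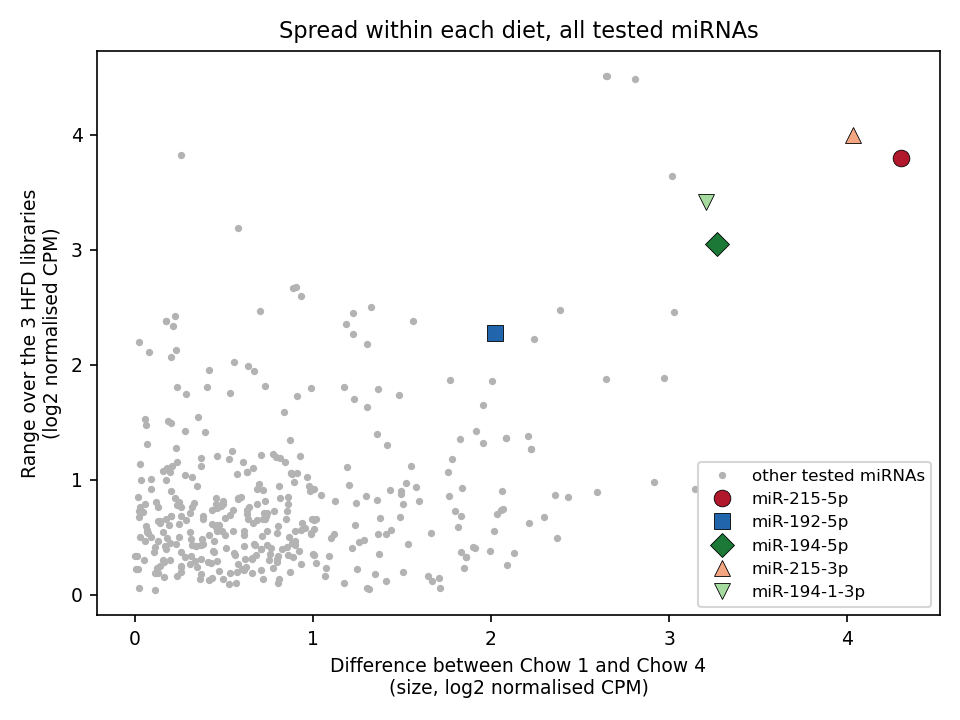
Each point is 1 of 385 tested miRNAs, with the size of the difference between Chow 1 and Chow 4 on the x axis and the range over the 3 HFD libraries on the y axis, both in log2 normalised CPM. miR-215-5p, miR-215-3p, miR-194-5p and miR-194-1-3p lie at the right edge, from 3.21 to 4.31, and miR-192-5p lies at 2.02.

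The miRNAs ahead of miR-215-3p in the HFD range were miRNAs of striated muscle. miR-1a-3p and miR-1b-5p, an entry with nearly the same counts, had 4.51. miR-206-3p, specific to skeletal muscle, had 4.48. This comparison was chosen after their values were seen. Among 232 miRNAs outside the family that were counted in all 7 libraries at a mean of at least 10 CPM, those most like miR-192-5p by Pearson correlation of log2 CPM were miR-25-3p (0.78), miR-1a-3p (0.78), miR-1b-5p (0.78), miR-378b (0.77) and miR-465c-5p (0.72). Those most like miR-194-5p were miR-1a-3p (0.86), miR-1b-5p (0.86) and miR-378b (0.78). Other tested muscle miRNAs had 0 counts in Chow 2 or Chow 3 and so fell outside the 232. Their correlations with miR-192-5p were 0.96 for miR-206-3p, 0.93 for miR-499-5p, 0.92 for miR-133a-5p, 0.83 for miR-133b-3p and 0.57 for miR-133a-3p. These values carry no test, and the points share depth and scaling. miR-1b-5p has nearly the same counts as miR-1a-3p, so the pair is one measurement. Without Chow 3, 2 of the 5 miRNAs most like miR-192-5p stayed among the 5, both entries of the miR-1 pair.

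The striated muscle list, added after the likeness was seen, was high in the same 3 libraries. Its summed level over 7 miRNAs was 3831, 1448 and 183 normalised CPM in HFD 1 to HFD 3, against 257, 132, 419 and 1672 in Chow 1 to Chow 4. miR-1a-3p made up most of it, with 3323, 1191 and 145 normalised CPM in the HFD libraries and 206, 98.7, 374 and 1291 in the Chow libraries. The value of 374 in Chow 3 rests on 17 counts. All 7 miRNAs were detected in HFD 1, HFD 2, HFD 3 and Chow 4, 6 in Chow 1, 3 in Chow 2 and 2 in Chow 3, where miR-206-3p had 0 counts. The list had 0 of 6 tested miRNAs past the edgeR threshold, against 2.86% of all miRNAs, with 0 at an unadjusted p under 0.05 and 0 called by DESeq2 or limma-voom. It had a median log2 fold change of 0.61, with 1.63 (SE 0.93, edgeR adjusted p = 0.303) for miR-1a-3p. The part of muscle miRNAs in the levels of miR-192, miR-194 and miR-215 was not tested.

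The summed level of other miRNAs listed for gut epithelium did not show that order of libraries. Single tested miRNAs of the list correlated with miR-192-5p from -0.24 (miR-375-3p) to 0.68 (miR-31-5p). The list of the miR-200 family, miR-141, miR-375, miR-31 and miR-203, 14 in the table, summed to 17213, 14349 and 14415 normalised CPM in HFD 1 to HFD 3, against 28431, 13806, 17712 and 23046 in Chow 1 to Chow 4. HFD 1 stood close to HFD 2 and HFD 3 in these sums. miR-200a-3p, an epithelial miRNA and the most abundant of the list, had 7143, 5093 and 5446 normalised CPM in HFD against 11345, 6524, 8151 and 8730 in Chow. Of 12 tested with edgeR, 0 passed (2 at an unadjusted p under 0.05, against 24.2% of all miRNAs, and 0 with DESeq2 and 0 with voom), and the fold change was positive for 1, with a median on the log2 scale of -0.53; miR-141-5p had -1.72 (SE 0.56, edgeR adjusted p = 0.0944).

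The kidney list, which holds miR-204, miR-190a, miR-196 and miR-30 passenger strands, ran the other way in HFD 1. Its 10 miRNAs summed to 350.3, 855 and 883 normalised CPM in HFD 1 to HFD 3, against 2197, 1114, 1146 and 1824 in Chow 1 to Chow 4. The largest part was miR-30a-3p, with 132, 289 and 387 in HFD and 1364, 743, 881 and 1069 in Chow. The fat list also holds miR-196a-5p, and it holds miR-30a-5p, the other strand of miR-30a. Of 7 tested with edgeR, 0 passed (1 at an unadjusted p under 0.05, 1 with DESeq2 and 1 with voom, against 24.2%, 13% and 4.16% of all miRNAs), and the fold change was positive for 0, with a log2 median of -0.62 and -1.92 (SE 0.48, edgeR adjusted p = 0.0558) for miR-30a-3p. The liver list of 4 summed to 1440, 1533 and 1552 normalised CPM in HFD and 2875, 2397, 3238 and 2366 in Chow. Outside Chow 3, most of each sum was miR-101a-3p. It had 1291, 1417 and 1404 in HFD and 2609, 1965, 1388 and 2027 in Chow. miR-122-5p, the defining miRNA of hepatocytes, had 139, 103 and 134 normalised CPM in HFD against 257, 428, 1850 and 326 in Chow, and did not pass (log2 fold change -2.46, SE 0.70, edgeR adjusted p = 0.0642). The levels of miR-122-5p did not overlap between the diets, which held for 22.3% of all tested miRNAs. Of the liver list, 0 of 3 tested miRNAs passed with edgeR (1 at an unadjusted p under 0.05 and 1 with DESeq2, against 24.2% and 13% of all miRNAs, and 0 with voom).

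The red cell list of 6, led by miR-451a, summed to 2440, 2672 and 930.2 normalised CPM in HFD and 3037, 4155, 2555 and 3931 in Chow. HFD 3 was the lowest library for it, as it was the lowest HFD library for all 5 miRNAs, but Chow 2 was the highest. Of 6 tested with edgeR, 0 passed (4 at an unadjusted p under 0.05, against 24.2% of all miRNAs, 0 with DESeq2 and 0 with voom), and the median log2 fold change was -0.79. The entries miR-486a-3p, miR-486b-3p and miR-486a-5p had nearly the same level in every library, so they are not separate measurements. Each was among those at an unadjusted edgeR p under 0.05, with log2 fold changes of -1.17, -1.18 and -1.16. The other tested values were 1.78 for miR-144-5p, 1.10 for miR-144-3p and -0.43 for miR-451a. The testis list of 18, mostly of the miR-465 and miR-743 cluster on the X chromosome, summed to 3945, 2067 and 979 normalised CPM in HFD and 1702, 512, 705 and 1021 in Chow. Of 13 tested with edgeR, 0 passed (9 at an unadjusted p under 0.05 and 8 with DESeq2, against 24.2% and 13% of all miRNAs, and 0 with voom) and the fold change was positive for 12, with a log2 median of 1.79. In the pancreas list, 1 of 8 was tested, miR-7a-5p, which did not pass with edgeR but did with DESeq2 and voom (log2 fold change 1.67, SE 0.44, edgeR adjusted p = 0.0642).

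The p53 list holds the other p53-induced miRNAs, among them the miR-34 family, miR-143 and miR-145. It shares 2 miRNAs with the testis list and 2 with the fat list. Of 10 tested with edgeR, 0 rose and 1 fell past the threshold, against 2.86% of all miRNAs called in either direction. There were 2 at an unadjusted edgeR p under 0.05, 1 with DESeq2 and 1 with voom, against 24.2%, 13% and 4.16% of all miRNAs. The log2 median was 0.21. The 1 that fell was miR-143-3p, a strand of smooth muscle and stromal cells, at -2.58 (SE 0.43, edgeR adjusted p = 0.0224). The list, most of it miR-143-3p, summed to 3015, 3219 and 4395 normalised CPM in HFD 1 to HFD 3, against 11720, 20245, 20509 and 12154 in Chow 1 to Chow 4. These sums did not overlap between the diets. Nor did miR-143-3p alone, with 1776, 2204 and 3554 normalised CPM in HFD against 9871, 19296, 19738 and 11118 in Chow. Single miRNAs did not overlap for 22.3% of all tested miRNAs. Over the 7 lists other than those of fat and muscle, 50 distinct miRNAs were tested and 1 passed (2.0%), near the 2.86% of all tested miRNAs. That 1 was miR-143-3p, which is also on the fat list. Of the fat list, 10 were tested with edgeR and 2 fell past the threshold, miR-143-3p and miR-148a-3p. DESeq2 called 2 and voom called 2, and 2 had an unadjusted edgeR p under 0.05. The part of each list in the levels of the 5 miRNAs was not tested.

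**Figure D5:**
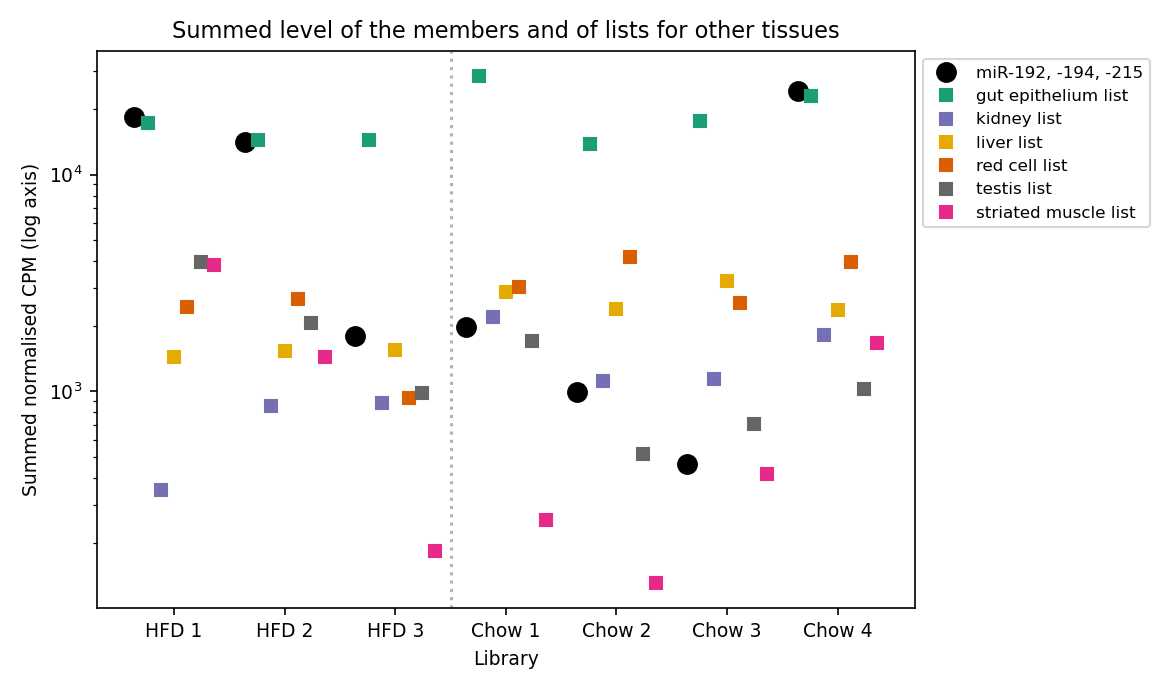
Summed normalised CPM on a log axis in each library for the 5 miRNAs (black) and for lists of other miRNAs of gut epithelium, kidney, liver, red cells, testis and striated muscle. The black points run from 463 in Chow 3 to 24326.5 in Chow 4, while the gut epithelium list stays between 13806 and 28431.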

How the data were processed

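Per the file headers, the deposited tables give raw counts of reads for each mature miRNA. Per the submitters' processing notes, Bowtie was used, with no version; the counting program, annotation release and mismatch settings are not stated in the sources used here. Values were taken from the table of all 7 libraries, and 0 of its cells differed from the separate tables once blanks were read as 0. It held 0 other per-sample columns. The 385 miRNAs that passed filterByExpr were tested with edgeR 4.0.16 in R 4.3.3 (TMM scaling, quasi-likelihood F test, diet as the only term, Benjamini-Hochberg threshold 0.05), with SE from the F statistic. The fit was tested on simulated data. Library totals ran from 48840 to 5941955 counts. Sequences are RefSeq and gene positions GENCODE, both GRCm38.

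The members, lists and rule for named miRNAs were chosen with earlier results of these data known. The rule named the members, other arms and seed sharers, the 5 miRNAs most like miR-192-5p and the 3 most like miR-194-5p, up to 3 miRNAs per list by p, miR-122-5p, miR-451a and miR-148a-3p. Alternatives were other scalings and filters, DESeq2 1.42.0, limma-voom (limma 3.58.1), omitted libraries and a replicate block. No label ties libraries to separate animals, so p-values measure the spread between libraries, which may be technical.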

Additional observations from a re-analysis of the deposited data

Results flagged for a closer look

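Chow 4 lay far from the other 3 Chow libraries for each of the 5 miRNAs. Its levels were 17837 normalised CPM for miR-215-5p, 243 for miR-215-3p, 3190 for miR-194-5p, 69.2 for miR-194-1-3p and 2988 for miR-192-5p, and the sum was 24326.5. The gap from Chow 4 to the next Chow library, divided by the range over Chow, was between 0.838 and 0.949, which is what drew attention to them. The miRNAs were selected as a pattern that crosses the diets, so a Chow library with high levels was part of that choice. The gap is therefore a description and no test, and the rate of about 1 in 20 groups that chance flags does not apply to values chosen in this way. The values come from the same libraries and count as 1 pattern and not 6.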

How the results depend on the processing

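The count of called miRNAs depended on the processing, against 11 in the edgeR fit with TMM. It was 18 with RLE scaling, 39 with library size only, 62 of 1042 without a filter, 50 with DESeq2 (45 adjusted p-values NA), 25 with the 3 most abundant miRNAs left out of the scaling, and 0 of 403 without Chow 2 and Chow 3 (95 at an unadjusted p under 0.05, 40 called by DESeq2, 1 by voom). The list miRNAs called, 1 in that fit, were 3, 9, 12, 12, 5 and 0 under the same settings in that order (26 at an unadjusted p under 0.05, 6 by DESeq2 and 0 by voom for the last), and 3 with voom. With a replicate block on replicates 1 to 3, 22 miRNAs and 3 list miRNAs passed, against 1 miRNA on the same libraries without it (chosen after seeing the data); the numbers share no animal or batch in the labels, and 0 of 3 HFD libraries correlated best with their own number. Leaving out 1 library gave 0 to 32 calls (0 without HFD 2, where 57 had an unadjusted p under 0.05, DESeq2 called 13 and voom 0; 32 without Chow 1), 0 to 6 list calls and a summed log2 ratio of 0.31 to 3.31, the highest without Chow 4. The cause was not tested.

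Log2 fold changes ran from -0.20 to 1.42 for miR-192-5p, -0.22 to 2.60 for miR-194-5p, -0.22 to 6.62 for miR-215-5p and -0.92 to 3.87 for miR-215-3p over 18 alternatives each, and from -0.72 to 0.41 for miR-194-1-3p over 15. The lowest value of each came without Chow 2 and Chow 3. The median of all miRNAs was -0.02 with TMM, 0.09 with RLE and 0.31 with library size. Depth limits Chow 2 and Chow 3, where 0 of miR-215-3p allows up to 14.1 and 66.1 normalised CPM.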
